A study of Mus musculus with 20 samples.

Results

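The 10 genes described here are targets of the transcription factor p53 that act in cell death and survival. They are *Eda2r*, *Tnfrsf10b*, *Fas*, *Bax*, *Bbc3*, *Pmaip1*, *Phlda3*, *Perp*, *Aen* and *Trp53inp1*. They were chosen by name from 43430 genes counted, with earlier results of the same libraries in view. In those results p53 targets were higher after a MAT2A inhibitor in both genotypes of mice. All 10 passed the filter on low counts, as did 16152 genes in all. Their inhibitor differences are therefore given as descriptions without a test, whereas differences between genotypes, which did not guide the choice, were tested. The interaction, which compares the inhibitor differences of the genotypes, was also tested, although those differences were known at the choice.

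The RNA came from kidney cortex of male C3H/HeJ mice that were 10 weeks old when a high-fat diet (HFD) began. Mice were either WT or Sweet Pee (SP), a line with a germline missense mutation of *Slc5a2* that leaves it without functional SGLT2, the glucose transporter of the proximal tubule. Every mouse ate HFD for 8 weeks and was then injected i.p. 3 times a week for 8 more weeks, either with placebo (DMSO) or with 10 mg/kg of MAT2Ai, a styryl methylaniline carrying chlorine and fluorine that blocks MAT2A, the enzyme that makes S-adenosylmethionine. The 4 groups, WT placebo, WT MAT2Ai, SP placebo and SP MAT2Ai, held 5 libraries each, so that no group was free of HFD. The design asks what the inhibitor did in each genotype and whether the genotypes differed.

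p53 is held at a low level by MDM2 and accumulates after DNA damage, nucleolar stress and other insults. It then binds DNA as a tetramer and switches on genes for growth arrest, DNA repair and death. The death genes act on several levels. Receptors of the TNF receptor family at the cell surface pass signals to adaptors and caspases or to NF-kB, and BCL2 family proteins set whether the outer mitochondrial membrane is breached. Other targets restrain survival signals, digest nucleic acids or link p53 to autophagy. In the kidney this program is best known from acute injury of the proximal tubule.

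Promoter sequences were available from RefSeq (GRCm38.p6) for 6 of the 10 genes, as 9 windows of 300 bases that run from 250 bases before to 50 bases after a start of transcription. The p53 half-site, a symmetric motif of 10 letters that reads alike on both strands, was matched exactly in the windows of 2 genes, *Bax* and *Aen*. Of 32851 windows over all genes, 8.36% held such a match. The windows of these genes are shown together with those of *Eda2r* and *Phlda3*, which had the highest fold changes with the inhibitor and held no exact match. Capitals mark the half-site.

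Bax: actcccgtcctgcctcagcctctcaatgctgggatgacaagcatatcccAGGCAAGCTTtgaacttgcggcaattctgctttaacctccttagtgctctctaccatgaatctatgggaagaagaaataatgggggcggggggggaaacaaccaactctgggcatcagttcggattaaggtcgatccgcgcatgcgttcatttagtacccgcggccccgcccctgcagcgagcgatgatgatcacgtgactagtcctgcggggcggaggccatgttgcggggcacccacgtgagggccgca
Aen: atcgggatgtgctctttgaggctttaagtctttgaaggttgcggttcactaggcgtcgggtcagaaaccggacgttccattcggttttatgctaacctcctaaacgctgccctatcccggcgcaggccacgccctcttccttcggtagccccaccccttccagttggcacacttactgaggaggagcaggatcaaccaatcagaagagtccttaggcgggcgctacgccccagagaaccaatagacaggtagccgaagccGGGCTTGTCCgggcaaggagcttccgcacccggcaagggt
Eda2r: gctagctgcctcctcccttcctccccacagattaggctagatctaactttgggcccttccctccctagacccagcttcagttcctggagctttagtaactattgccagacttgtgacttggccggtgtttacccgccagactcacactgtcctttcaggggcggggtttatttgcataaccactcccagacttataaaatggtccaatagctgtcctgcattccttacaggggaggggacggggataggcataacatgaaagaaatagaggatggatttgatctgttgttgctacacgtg
Phlda3: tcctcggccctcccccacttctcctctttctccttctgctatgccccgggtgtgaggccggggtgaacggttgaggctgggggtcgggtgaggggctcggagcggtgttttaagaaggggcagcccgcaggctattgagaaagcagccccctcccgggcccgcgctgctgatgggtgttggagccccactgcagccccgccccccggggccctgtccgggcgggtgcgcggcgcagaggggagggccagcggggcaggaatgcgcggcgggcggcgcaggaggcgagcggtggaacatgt

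The *Bax* window lies on the minus strand at chr7:45466849-45467148, with the half-site starting at position -201 from the start of transcription and a near match at position -212. Together, with a spacer of 1 base, they differed from a pair of half-sites at 1 letter. The *Aen* window lies on the plus strand at chr7:78895677-78895976, with the half-site starting at position 10 after the start. It also lies in the window of a second *Aen* start, at position -121. The windows of *Eda2r* (minus strand, chrX:97377160-97377459) and *Phlda3* (plus strand, chr1:135765835-135766134) held no exact match and 1 CATG each, one of the forms that the central letters of the half-site can take, found in 61.1% of all windows. The exact matches in *Bax* and *Aen* hold other forms, CAAG and CTTG. A match describes these letters and does not show binding.

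Each library held 53296824 to 79339949 gene counts. Levels are in CPM, counts divided by TMM-scaled library size, and differences are log2 fold changes from edgeR with their SE. All 8 proximal tubule markers were detected in every library, at a summed 10970 to 17865 CPM. WT MAT2Ai replicate 2 stood apart, with a score of -89.7 on the first principal component. Replicates 3 and 4 of that group had the next lowest scores, -21.8 and -19.4, no farther from 0 than the highest of the others, which ranged from -6.00 to 22.8. In replicate 2 the 12 tubular injury markers summed to 8074 CPM, against 967 CPM in replicate 3 and 447 to 698 CPM in the other 18 libraries. *Slc5a2*, the mutated gene, was at 241 and 282 CPM in the libraries labelled SP placebo replicates 1 and 2, within the 229 to 518 CPM of WT, whereas the other 8 SP libraries had 40.2 to 85.9 CPM. This level goes against the label of these libraries, so that the counts and tests that use SP placebo are also given without them. Summed macrophage markers were lower in range in SP MAT2Ai (25.6 to 53.3 CPM) than in SP placebo (42.3 to 78.3 CPM), as were T and B cell markers (2.15 to 4.44 CPM against 4.40 to 7.41 CPM) and endothelial markers (72.8 to 107 CPM against 92.8 to 157 CPM), with overlap in each. Proximal tubule markers were lower in range in WT MAT2Ai (10970 to 15219 CPM) than in WT placebo (15155 to 16859 CPM). The part of these features in the values that follow was not tested. In whole cortex, a change in the number of cells of a type and a change in RNA per cell cannot be told apart.

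Without the inhibitor the 10 genes spanned a wide range of levels. Per kilobase of exon, over the 10 placebo libraries, *Perp* was highest at 42.2 ± 2.85 CPM per kb (SD, n = 10), followed by *Bax* at 14.3 ± 0.981 CPM per kb and *Fas* at 4.41 ± 0.732 CPM per kb. *Trp53inp1* (3.01 CPM per kb), *Pmaip1* (3.01 CPM per kb), *Aen* (2.24 CPM per kb), *Phlda3* (1.59 CPM per kb) and *Bbc3* (0.870 CPM per kb) came next. *Tnfrsf10b* had 0.230 ± 0.0250 CPM per kb and *Eda2r* 0.0673 ± 0.0240 CPM per kb. *Perp*, *Bax* and *Fas* were separated from each other in all libraries, as were *Bbc3*, *Tnfrsf10b* and *Eda2r*, whereas each neighbour from *Fas* down to *Bbc3* overlapped the next. The genes with the lowest placebo level, *Eda2r* and *Tnfrsf10b*, were among those with the highest fold changes, whereas *Perp*, the most abundant, had log2 fold changes of 0.04 in SP and 0.09 in WT.

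**Figure D1:**
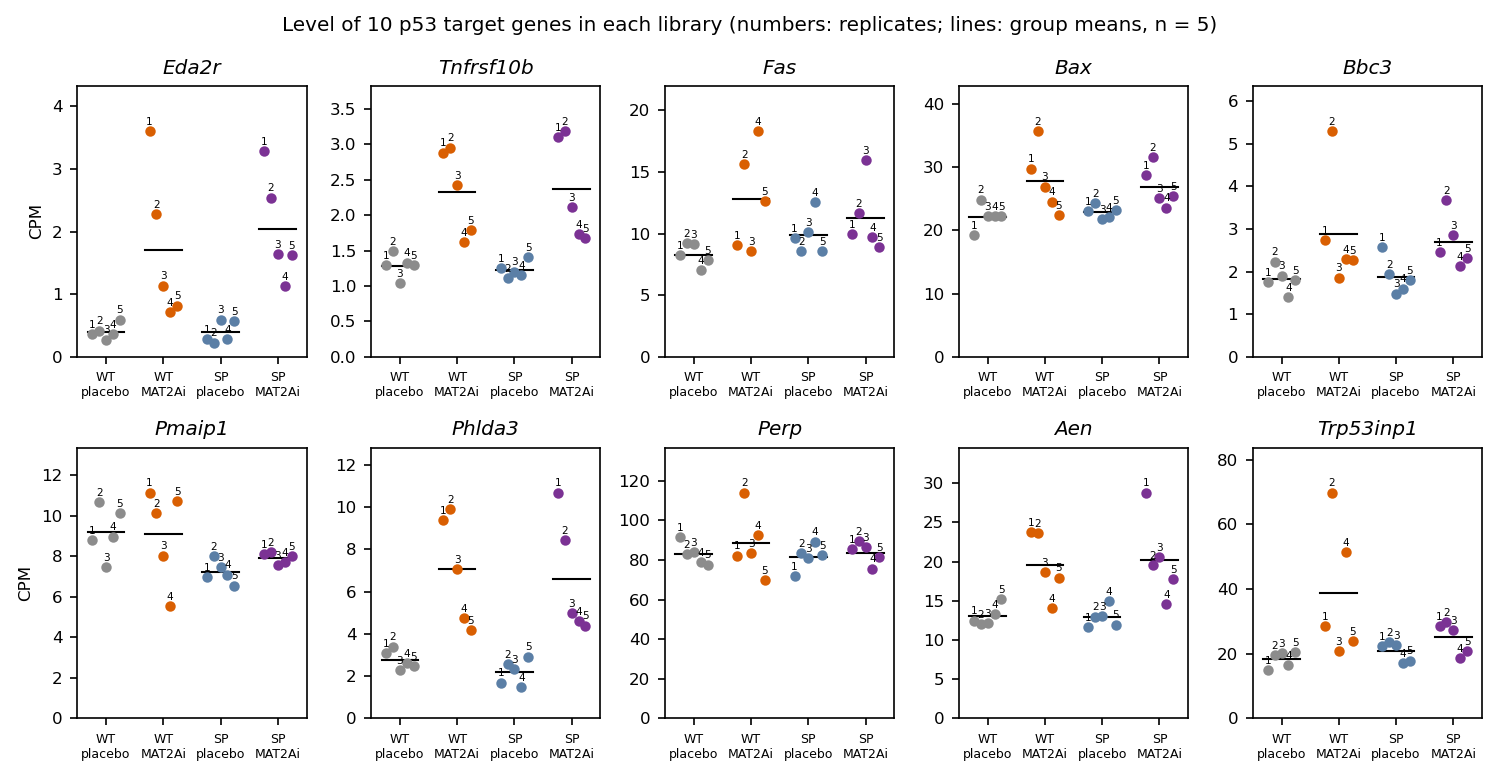
Level of each gene in CPM (vertical axes, from 0) in the 20 libraries, by group; points are libraries with their replicate numbers and lines are group means (n = 5). *Eda2r*, *Tnfrsf10b* and *Phlda3* libraries with MAT2Ai all lie above all placebo libraries of both genotypes, whereas *Perp* and *Pmaip1* overlap throughout.

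All 10 genes had a positive log2 fold change with MAT2Ai in SP and 9 of 10 in WT, with *Pmaip1* the exception (-0.01). The median over the genes was 0.39 in SP and 0.65 in WT, whereas the median over all 16152 tested genes was 0.00 in SP and 0.01 in WT. In SP, the 5 inhibitor libraries lay above all 5 placebo libraries for 3 of the 10 genes, *Eda2r*, *Tnfrsf10b* and *Phlda3*, as they did for 1.06% of all genes. In WT this held for 4 genes, the same ones and *Trp53inp1*, against 1.52% of all genes. Over both genotypes, the 10 treated libraries lay above the 10 placebo libraries for 3 genes, against 0.0805% of all genes. Since the comparison was known when the genes were chosen, nothing is read from these shares. Without the libraries labelled SP placebo replicates 1 and 2, the count in SP was 6, against 2.76% of all genes, and the count over both genotypes was 3, against 0.0906%. The genes added in SP were *Bax*, *Bbc3* and *Pmaip1*.

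**Figure D2:**
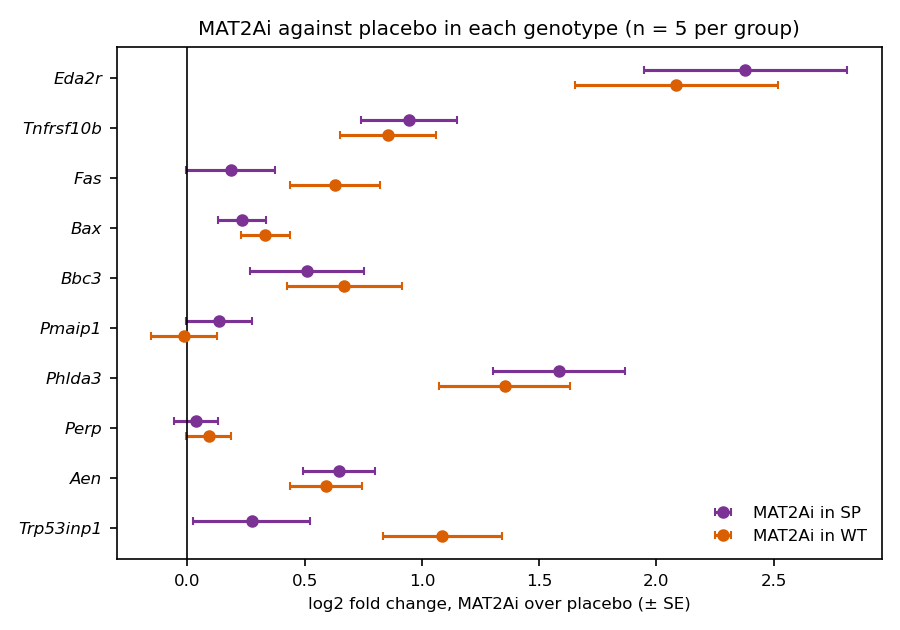
Log2 fold change of MAT2Ai over placebo (horizontal axis) for each gene in SP and in WT; points are edgeR estimates and bars are ± SE, with 5 libraries per group. *Eda2r* and *Phlda3* lie farthest to the right in both genotypes, and *Fas* and *Trp53inp1* have higher values in WT than in SP.

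The death receptors were the group with the greatest range. *Eda2r* (ENSMUSG00000034457, chrX:97333840-97377216 in mm10) encodes the receptor for the A2 form of ectodysplasin, which signals to NF-kB and JNK. Its placebo libraries, replicates 1 to 5, had 0.360, 0.417, 0.275, 0.366 and 0.594 CPM in WT and 0.286, 0.228, 0.594, 0.277 and 0.570 CPM in SP. With MAT2Ai it was at 3.60, 2.28, 1.14, 0.71 and 0.818 CPM in WT and 3.28, 2.54, 1.63, 1.13 and 1.63 CPM in SP. Every treated library was above every placebo library, although the treated ones varied more than 5-fold in WT, with replicate 4 close to the highest placebo value. The log2 fold change was 2.38 ± 0.43 in SP, a 5.2-fold difference, and 2.08 ± 0.43 in WT, a 4.24-fold difference. The counts behind these values were low, 15 to 254 per library.

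*Tnfrsf10b* (ENSMUSG00000022074, chr14:69767472-69784411) encodes the mouse receptor for TRAIL, which recruits FADD and caspase 8. Its CPM values were 1.29, 1.49, 1.03, 1.33 and 1.30 in WT placebo and 1.25, 1.11, 1.2, 1.15 and 1.40 in SP placebo. MAT2Ai libraries had 2.88, 2.95, 2.42, 1.62 and 1.79 CPM in WT and 3.10, 3.18, 2.12, 1.74 and 1.67 CPM in SP. The treated and placebo libraries did not overlap in either genotype, and replicates 1 and 2 were the highest of each treated group. This gave a log2 fold change of 0.95 ± 0.20 in SP and 0.86 ± 0.21 in WT.

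*Fas* (ENSMUSG00000024778, chr19:34290666-34327772) encodes the receptor for FAS ligand and is also made by immune cells. It had 8.25, 9.22, 9.17, 7.02 and 7.85 CPM in WT placebo and 9.05, 15.6, 8.59, 18.3 and 12.6 CPM in WT MAT2Ai. In SP it had 9.66, 8.56, 10.1, 12.6 and 8.60 CPM with placebo and 9.98, 11.6, 16, 9.71 and 8.93 CPM with MAT2Ai. The groups overlapped in both genotypes, and the high treated libraries were WT replicates 2, 4 and 5 and SP replicate 3, a pattern unlike that of the other receptors. Its log2 fold change was 0.18 ± 0.19 in SP and 0.63 ± 0.19 in WT. Without SP MAT2Ai replicate 3 the SP value was 0.03, and without WT MAT2Ai replicates 2, 3 and 4 the WT value was 0.38.

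Among BCL2 family genes the differences were smaller. *Bax* (ENSMUSG00000003873, chr7:45461697-45466898, minus strand), whose half-site is shown above, encodes the effector that perforates the outer mitochondrial membrane. It was at 19.2, 24.9, 22.3, 22.2 and 22.3 CPM in WT placebo and 29.8, 35.7, 26.9, 24.6 and 22.4 CPM in WT MAT2Ai. In SP, placebo libraries had 23.1, 24.3, 21.8, 22.1 and 23.2 CPM and MAT2Ai libraries 28.7, 31.6, 25.2, 23.6 and 25.4 CPM. In log2 terms the difference was 0.23 ± 0.10 in SP and 0.33 ± 0.10 in WT. Replicates 1 and 2 of both treated groups were the highest, and the groups overlapped in both genotypes through single libraries. The SP groups did not overlap without SP MAT2Ai replicate 4, nor without the library labelled SP placebo replicate 2. The WT groups did not overlap without WT placebo replicate 2.

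*Bbc3* (ENSMUSG00000002083, chr7:16308393-16318205) encodes PUMA, a BH3-only protein that frees BAX and BAK from their inhibitors. It was at 1.74, 2.23, 1.91, 1.40 and 1.80 CPM in WT placebo, and at 2.74, 5.30, 1.86, 2.29 and 2.26 CPM in WT MAT2Ai. SP placebo libraries had 2.57, 1.95, 1.48, 1.60 and 1.79 CPM and SP MAT2Ai libraries 2.45, 3.68, 2.85, 2.12 and 2.31 CPM. The groups overlapped, and replicate 2 was the highest treated library in both genotypes. The overlap was absent in SP without the library labelled SP placebo replicate 1, and in WT without WT MAT2Ai replicate 3. On the log2 scale the difference was 0.51 ± 0.24 in SP and 0.67 ± 0.24 in WT, and without WT MAT2Ai replicate 2, the library rich in tubular injury markers, the WT value was 0.33.

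*Pmaip1* (ENSMUSG00000024521), on chromosome 18, encodes NOXA, a BH3-only protein that acts mainly on MCL1. It was at 8.80, 10.7, 7.45, 8.98 and 10.1 CPM in WT placebo and at 11.1, 10.1, 8.03, 5.56 and 10.7 CPM in WT MAT2Ai. In SP it was at 6.99, 8.01, 7.45, 7.10 and 6.55 CPM with placebo and at 8.11, 8.21, 7.57, 7.72 and 8.00 CPM with MAT2Ai. Treated and placebo libraries overlapped in both genotypes, with 1 low library, WT MAT2Ai replicate 4. The SP groups did not overlap without the library labelled SP placebo replicate 2. Its log2 fold change was 0.13 ± 0.14 in SP and -0.01 ± 0.14 in WT, and the WT value was 0.24 without WT MAT2Ai replicates 2, 3 and 4.

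The remaining genes act at other points. *Phlda3* (ENSMUSG00000041801, chr1:135766119-135769136) encodes a small PH-domain protein that competes with AKT for membrane lipids and so restrains a survival signal. It was at 3.07, 3.39, 2.26, 2.61 and 2.47 CPM in WT placebo and at 1.69, 2.57, 2.34, 1.49 and 2.92 CPM in SP placebo. With MAT2Ai it had 9.36, 9.91, 7.07, 4.74 and 4.16 CPM in WT and 10.7, 8.44, 4.97, 4.6 and 4.38 CPM in SP. Treated libraries were above all placebo libraries in both genotypes, again with replicates 1 and 2 at the top. The log2 fold change was 1.59 ± 0.28 in SP and 1.35 ± 0.28 in WT, which is 3-fold and 2.55-fold.

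*Aen* (ENSMUSG00000030609, chr7:78895854-78911209) encodes a nuclease that digests DNA and RNA in dying cells, and its windows held a half-site. It had 12.5, 12, 12.2, 13.3 and 15.2 CPM in WT placebo and 23.7, 23.6, 18.6, 14 and 17.9 CPM in WT MAT2Ai. In SP it had 11.7, 13.0, 13.1, 14.9 and 12 CPM with placebo and 28.8, 19.5, 20.5, 14.6 and 17.7 CPM with MAT2Ai. A single treated library in each genotype, replicate 4, fell within the placebo range, and the others lay above it. The difference was 0.64 ± 0.15 in SP and 0.59 ± 0.15 in WT on the log2 scale.

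*Trp53inp1* (ENSMUSG00000028211, chr4:11156431-11174379) encodes a stress-induced nuclear protein that acts with p53 and in autophagy. It was at 14.9, 19.5, 20.3, 16.4 and 20.4 CPM in WT placebo and at 28.5, 69.8, 20.8, 51.5 and 24 CPM in WT MAT2Ai. SP libraries had 22.4, 23.5, 22.8, 17.0 and 17.9 CPM with placebo and 28.5, 29.9, 27.3, 18.7 and 20.9 CPM with MAT2Ai. The WT groups did not overlap, although replicate 3 was just above the highest placebo library and fell within the placebo range when only the WT libraries were scaled together. The SP groups overlapped. The log2 fold change was 0.27 ± 0.25 in SP and 1.09 ± 0.25 in WT, where replicates 2 and 4 were far above the others. Without WT MAT2Ai replicates 2, 3 and 4 the WT value was 0.51.

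*Perp* (ENSMUSG00000019851, chr10:18845020-18857073) encodes a membrane protein of the PMP22 family that epithelia need for desmosomes. It had 91.5, 82.9, 84.1, 79.0 and 77.7 CPM in WT placebo and 82.3, 114, 83.6, 92.4 and 69.8 CPM in WT MAT2Ai. SP libraries had 72.0, 83.5, 81.1, 89.3 and 82.3 CPM with placebo and 85.3, 89.4, 86.6, 75.6 and 81.6 CPM with MAT2Ai. The groups overlapped, with WT MAT2Ai replicates 2 and 4 above all WT placebo libraries and replicate 5 below them. The log2 fold change was 0.04 ± 0.10 in SP, with a 95% interval of -0.16 to 0.24, and 0.09 ± 0.10 in WT, with an interval of -0.11 to 0.29, and the WT value was -0.13 without WT MAT2Ai replicates 2, 3 and 4.

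The treated libraries were not uniform, and several genes shared the same order. WT MAT2Ai replicates 1 and 2 and SP MAT2Ai replicates 1 and 2 were the 4 highest of the 10 treated libraries for *Eda2r*, and the same 4 were highest for 3 further genes, *Tnfrsf10b*, *Bax* and *Phlda3*. *Aen* shared 3 of these 4, with SP MAT2Ai replicate 3 in place of SP MAT2Ai replicate 2. *Bbc3*, *Trp53inp1* and *Pmaip1* also shared 3. *Fas* shared only 1, and *Perp* 2. The 4 libraries were ordinary in depth, with 59750418 to 70105956 gene counts, and in the share of mitochondrially encoded counts, 14.1% to 18.5% against 12.4% to 22.2% over all libraries. Only 1 of them, WT MAT2Ai replicate 2, stood apart in tubular injury markers. The labels give no litter, cage or processing day, so that such groupings could not be examined.

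**Figure D3:**
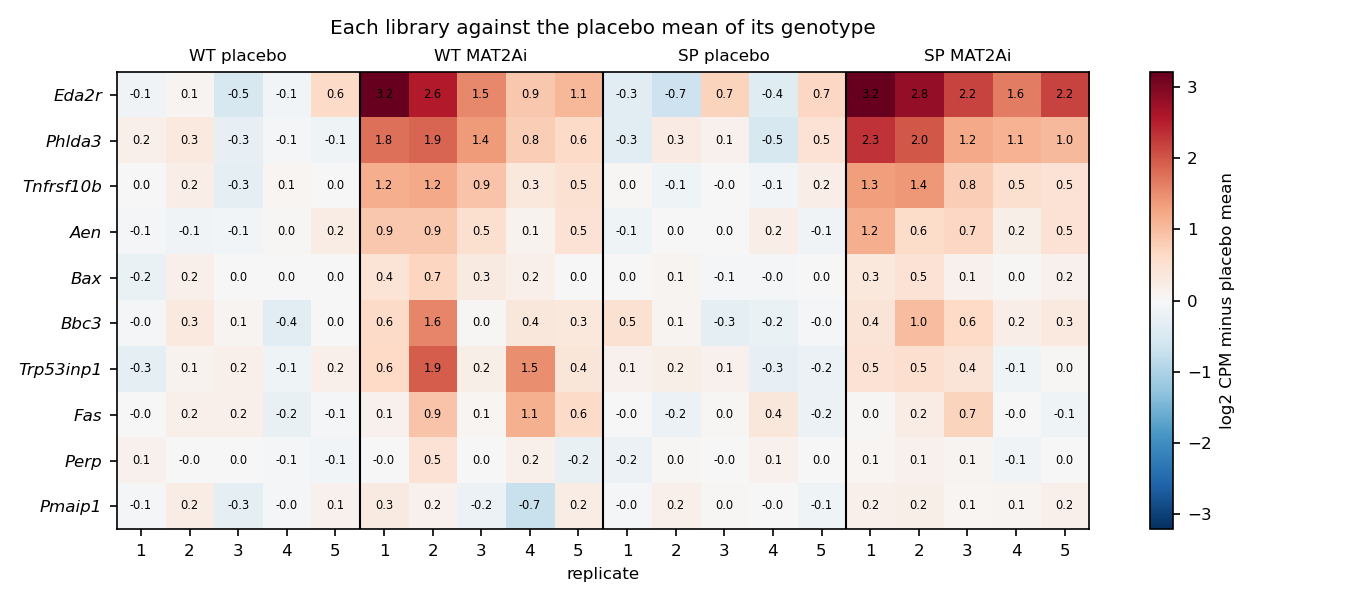
Log2 CPM of each library minus the mean log2 CPM of the placebo libraries of the same genotype (colour and printed value), for each gene (rows) and replicate (columns). *Eda2r*, *Phlda3* and *Tnfrsf10b* are above 0 in all treated libraries and highest in replicates 1 and 2 of both genotypes, whereas *Trp53inp1* and *Fas* are highest in WT MAT2Ai replicates 2 and 4.

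Differences between SP and WT were tested with the edgeR quasi-likelihood test, adjusted over all 16152 genes. Under placebo, 0 of the 10 genes were called (0.00% of all genes), and the smallest unadjusted p was that of *Pmaip1*. The same count of 0, with 1 gene called in all, was found without the libraries labelled SP placebo replicates 1 and 2, whose *Slc5a2* level was unlike that of the other SP libraries. Under MAT2Ai, 0 of 10 were called, against 1.84% of all genes. Over both treatments, 0 of 10 were called, against 1.33% of all genes. The interaction, which asks whether the inhibitor difference in SP differed from that in WT, called 0 of 10 (0.00% of all genes). The inhibitor differences of both genotypes were known when the genes were chosen, so this count is not independent of the choice. In each of these 4 comparisons 1 of the 10 genes had an unadjusted p under 0.05, and DESeq2 also called 0 of 10 in each. Median log2 differences between genotypes were -0.02 under placebo, -0.09 under MAT2Ai and -0.03 over both treatments, and 0.01, -0.08 and -0.03 without those libraries, when edgeR again called 0 of 10 in each comparison.

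For *Pmaip1*, the NOXA gene, the log2 difference between SP and WT was -0.35 ± 0.14 under placebo (edgeR unadjusted p = 0.0211, adjusted p = 1.0) and -0.28 ± 0.10 over both treatments (unadjusted p = 0.0111, adjusted p = 0.131, both from edgeR). SP placebo libraries lay between 6.55 and 8.01 CPM and WT placebo libraries between 7.45 and 10.7 CPM, so that the groups overlapped. Without the libraries labelled SP placebo replicates 1 and 2 the difference under placebo was -0.40 ± 0.17 (edgeR unadjusted p = 0.0332, adjusted p = 0.979). The call depended on 1 library: without WT MAT2Ai replicate 4, in which *Pmaip1* was lowest of all 20, the difference was -0.34 with an edgeR adjusted p of 0.0179, with 574 genes called in that fit. Without WT MAT2Ai replicates 2, 3 and 4 it was -0.41 with an edgeR adjusted p of 0.0117. Over all 29 alternatives the adjusted p of *Pmaip1* ranged from 0.0117 to 0.240 and passed in 3.

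Of the 10 genes, *Trp53inp1* had the greatest difference between genotypes under MAT2Ai, at -0.63 ± 0.25 (edgeR unadjusted p = 0.0195, adjusted p = 0.147). Its interaction was -0.81 ± 0.35 on the log2 scale (edgeR unadjusted p = 0.0327, adjusted p = 0.842), with a 95% interval of -1.55 to -0.07. The interaction was -0.49 without WT MAT2Ai replicate 2 and -0.24 without WT MAT2Ai replicates 2, 3 and 4, the libraries with the lowest scores on the first principal component. Without the libraries labelled SP placebo replicates 1 and 2 it was -0.69 (edgeR unadjusted p = 0.0955, adjusted p = 0.979). For *Fas* the interaction was -0.44 with an interval of -1.01 to 0.12.

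For the genes with the greatest inhibitor differences the interaction was small but imprecise. It was 0.30 for *Eda2r* with a 95% interval of -0.96 to 1.55, 0.23 for *Phlda3* with an interval of -0.58 to 1.05, and 0.09 for *Tnfrsf10b* with an interval of -0.51 to 0.69. Narrower intervals were found for *Aen* (-0.40 to 0.51), *Bax* (-0.41 to 0.21) and *Perp* (-0.33 to 0.23). These intervals do not show that the genotypes responded alike, and for *Eda2r* they leave room for a difference of more than 2-fold.

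**Figure D4:**
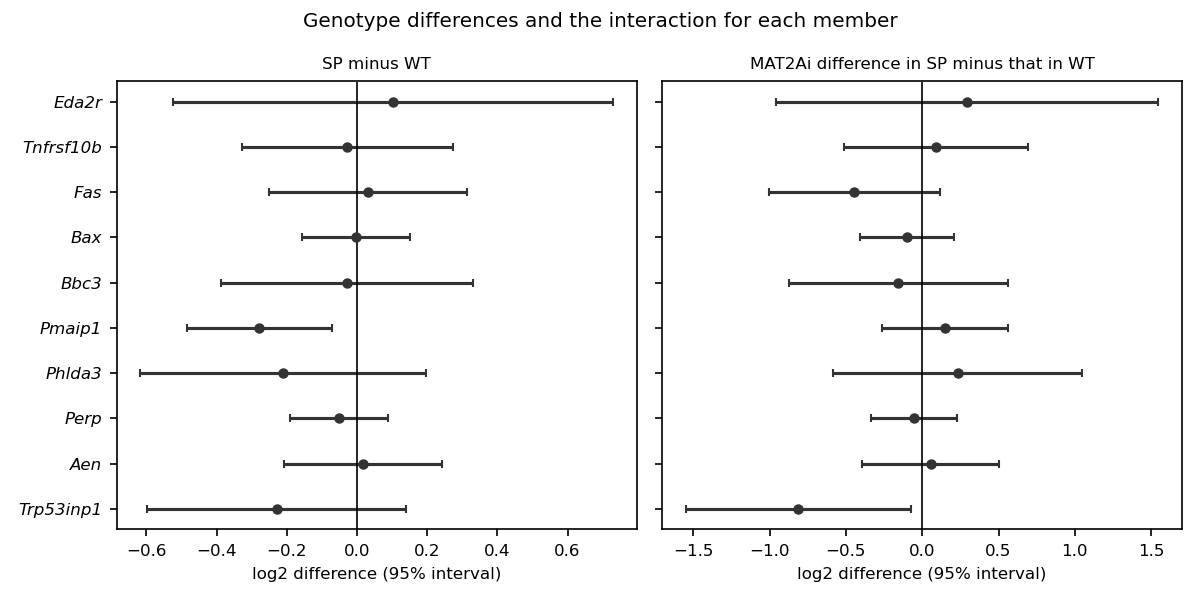
Log2 difference between SP and WT averaged over both treatments (left) and the interaction, the inhibitor difference in SP minus that in WT (right), for each gene; points are edgeR estimates and bars their 95% intervals, not adjusted for the number of genes. The interval of *Pmaip1* on the left and that of *Trp53inp1* on the right lie below 0, and all others include 0.

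The p53 gene itself, *Trp53*, was nearly level. Its group means were 19.3 ± 1.07 CPM (SD, n = 5) in WT placebo, 19.7 ± 2.76 CPM in WT MAT2Ai, 20.6 ± 1.27 CPM in SP placebo and 21.7 ± 1.88 CPM in SP MAT2Ai, and its log2 fold change over both genotypes was 0.05 ± 0.06. Of 7 tested genes of the p53 family and its regulators, edgeR and DESeq2 both called 0 with the inhibitor over both genotypes, and 0 had an unadjusted p under 0.05. *Atr*, a kinase of the DNA damage checkpoint, was higher in SP over both treatments by 0.25 ± 0.06 (edgeR adjusted p = 0.0493). Over 29 alternatives its adjusted p ranged from 0.00959 to 0.101 and passed in 5. Without the libraries labelled SP placebo replicates 1 and 2 the edgeR adjusted p of *Atr* was 0.0773.

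Other p53 targets were examined as 2 lists. Of 20 targets of growth arrest, feedback and repair, 7 rose with MAT2Ai over both genotypes, as did 0.186% of all genes, 0 fell, and the median log2 fold change was 0.40 against 0.01 over all genes. The list was written with earlier results of these libraries known, so that neither its direction nor its count of calls is independent evidence. The 7 were *Cdkn1a*, the cell cycle inhibitor p21 (2.62 ± 0.45, edgeR adjusted p = 0.0120), *Psrc1* (2.23 ± 0.28), *Gtse1* (2.13 ± 0.40), the stress cytokine *Gdf15* (1.88 ± 0.38), *Ccng1* (0.73 ± 0.12), *Mgmt*, a DNA repair enzyme (0.63 ± 0.12), and *Mdm2*, the p53 ligase (0.39 ± 0.06). In SP and WT the values were 1.79 and 3.45 for *Cdkn1a*, 1.05 and 3.21 for *Gtse1*, and 1.56 and 2.20 for *Gdf15*, whereas the others were higher in SP. *Gdf15* had a median of 9.52 CPM in WT MAT2Ai, with the highest library at 85.0 CPM. Without WT MAT2Ai replicate 2, the library rich in tubular injury markers, the same 7 were called. In SP alone 1 was called, *Psrc1* (2.63 ± 0.41, edgeR adjusted p = 0.0209), against 0.0186% of all genes. There 10 had an unadjusted p under 0.05 and DESeq2 called 4, *Mdm2*, *Ccng1*, *Psrc1* and *Mgmt*, with 27 genes called in all. EdgeR called 0 of all genes in SP without the libraries labelled SP placebo replicates 1 and 2, or without any 1 SP placebo library. In WT alone 0 were called (0.00% of all genes), where 13 had an unadjusted p under 0.05 and DESeq2 called 7, with 215 genes called in all. Over both genotypes, 4 to 8 of the 20 were called when 1 library at a time was left out. Without the libraries labelled SP placebo replicates 1 and 2, only *Psrc1* was called over both genotypes.

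Of 16 further p53 targets of cell death, edgeR called 0 in either direction in any comparison. Between genotypes, DESeq2 called *Dram1* and *Sfn* under MAT2Ai and *Dram1* over both treatments. With MAT2Ai over both genotypes 5 of the 16 had an unadjusted p under 0.05 and DESeq2 called 1, *Zfp385a*. The median log2 fold change of the 16 with MAT2Ai over both genotypes was 0.02. The values ranged from -0.46 for *Igfbp3* to 0.83 for *Sfn*, the latter with group means of 0.567 CPM in WT placebo and 1.77 CPM in WT MAT2Ai, where libraries ranged from 0.454 to 5.59 CPM. The nearest to the threshold was *Zfp385a* at 0.35 ± 0.08 (edgeR adjusted p = 0.0564). *Apaf1*, the scaffold of the apoptosome, had a log2 fold change of -0.32. The difference between this list and the 10 genes was not tested.

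Partners of the proteins described above were called in few cases. Of 17 tested ligands, adaptors and receptors of the death receptor pathway, edgeR called 0 with the inhibitor in SP, in WT or over both genotypes, as did DESeq2. Over both genotypes 3 had an unadjusted p under 0.05. *Fasl* was too low to test, with at most 15 counts in a library. *Eda*, which encodes the ligand of the EDA2R receptor, was lower in SP than in WT under MAT2Ai, by -1.31 ± 0.32 (edgeR adjusted p = 0.0432). Its level was 0.286 ± 0.138 CPM (SD, n = 5) in SP MAT2Ai and 0.718 ± 0.292 CPM in WT MAT2Ai, with ranges that did not overlap, 0.131 to 0.489 CPM against 0.525 to 1.23 CPM. The call passed in 11 of 30 alternatives, and without WT MAT2Ai replicates 2, 3 and 4 the difference was -0.88 (edgeR adjusted p = 0.300). *Tnfsf10*, which encodes TRAIL, had means of 83.2 ± 8.22 CPM in WT placebo, 72.4 ± 42.5 CPM in WT MAT2Ai, 87.8 ± 8.64 CPM in SP placebo and 85.1 ± 14.3 CPM in SP MAT2Ai.

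Of 13 tested BCL2 family genes edgeR called 0 in any comparison, with a median log2 fold change of 0.09 over both genotypes, where 5 had an unadjusted p under 0.05. The same count of 0 was found for 14 apoptosome, caspase and inhibitor-of-apoptosis genes, with a median of 0.00, and for 8 genes of AKT signalling and the PHLDA family, with a median of -0.02. Over both genotypes 2 and 0 of these had an unadjusted p under 0.05. DESeq2 called 0 of these 3 lists with the inhibitor, and between genotypes *Bik* over both treatments and *Casp9* under MAT2Ai. Among 7 relatives of *Perp* and *Trp53inp1*, *Emp2*, a tetraspan protein of the same family as PERP, was lower in SP than in WT over both treatments, by -0.70 ± 0.14 (edgeR adjusted p = 0.0224). It passed in 25 of 29 alternatives. Without the libraries labelled SP placebo replicates 1 and 2 the difference was -0.76 (edgeR adjusted p = 0.0280).

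**Figure D5:**
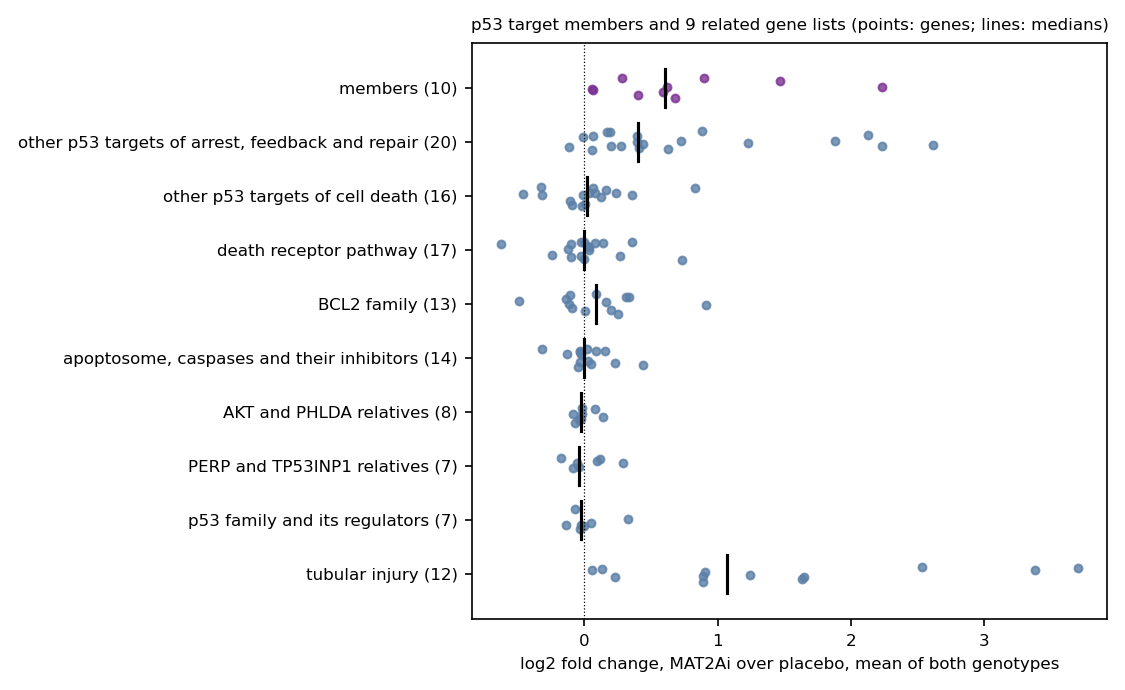
Log2 fold change of MAT2Ai over placebo, averaged over both genotypes (horizontal axis), for the 10 genes (labelled members) and 9 related gene lists; each point is a gene, lines are medians and the number of genes is in brackets. The arrest, feedback and repair targets have a median of 0.40, the other death targets one of 0.02, and the tubular injury markers, which were highest in WT MAT2Ai replicate 2, one of 1.07, or 0.44 without that library.

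The 12 tubular injury markers had a median log2 fold change of 2.12 in WT and 0.19 in SP with MAT2Ai, with 0 called by edgeR in either. The WT median was 0.68 without WT MAT2Ai replicate 2 and 0.25 without WT MAT2Ai replicates 2, 3 and 4. In WT 9 had an unadjusted p under 0.05 and DESeq2 called 5, with 215 genes called in all. Under MAT2Ai, edgeR called 4 of them lower in SP than in WT, *Lcn2*, *Krt20*, *Sox9* and *Timp1*, against 1.84% of all genes called in either direction. Of these calls 0 were left without WT MAT2Ai replicate 2, and 0 without the libraries labelled SP placebo replicates 1 and 2, which belong to neither group compared but share the estimate of the spread. Leaving out any 1 of the 20 libraries, 0 to 8 of the markers were called.

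Across the 20 libraries, likeness was measured as Pearson's r with the mean centred log2 CPM of the 10 genes, a description over libraries that share groups and treatment. Genes with a wide spread, *Eda2r* and *Phlda3* above all, weigh most in such a mean. To keep a gene out of its own mean, each of the 10 was set against the mean of the other 9. By this measure *Tnfrsf10b* (r = 0.94), *Phlda3* (r = 0.91), *Bax* (r = 0.88), *Aen* (r = 0.87) and *Eda2r* (r = 0.87) were most like the others, and *Perp* (r = 0.45), *Fas* (r = 0.42) and *Pmaip1* (r = 0.23) least. With every gene scaled to the same spread, the values were 0.89, 0.87, 0.89, 0.82 and 0.82 for the former and 0.48, 0.44 and 0.19 for the latter. On that scale *Bbc3* (r = 0.83) came before *Aen* and *Eda2r*. Outside the 10, the 5 genes most similar to the mean of all 10 were *Rhoq* (r = 0.94), *Sulf2* (r = 0.94), *Mdm2* (r = 0.93), *Tmem43* (r = 0.91) and *Gdf15* (r = 0.91). With group means removed, r was 0.82, 0.78, 0.78, 0.89 and 0.81. For the 10 genes themselves, each kept in the mean, r with group means removed ran from 0.13 for *Fas* to 0.86 for *Bax*. *Pmaip1* had 0.43, *Perp* 0.60 and *Trp53inp1* 0.64. *Sulf2*, for example, ranged from 16.4 to 19.9 CPM in WT placebo and 16.6 to 21.1 CPM in SP placebo, and from 22.7 to 45.7 CPM in WT MAT2Ai and 22.8 to 31.2 CPM in SP MAT2Ai, with no overlap between treatments.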

How the data were processed

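Poly(A) RNA of kidney cortex from 20 mice was made into directional libraries and sequenced on a NovaSeq. The authors trimmed the reads, aligned them to mm10 with STAR and deposited raw counts per gene from htseq, without scaling. The strand setting of the counting was not given in the sources used here, so overlapping antisense transcripts cannot be set apart. Symbols and coordinates came from GENCODE M21 for 42462 of 43430 gene IDs, and the 5 summary lines per file were left out.

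Genes were filtered with filterByExpr (min.count 10) and scaled by TMM. The edgeR 4.0.16 quasi-likelihood test (R 4.3.3) was fitted to all 20 libraries with 1 coefficient per group, and p values were adjusted by Benjamini-Hochberg over 16152 genes at a threshold of 0.05. Fold changes, SEs and 95% intervals are from that fit. The scripts were tested on simulated data. The alternatives were other scaling, DESeq2 1.42.0, limma-voom (limma 3.58.1), no filter, no mitochondrially encoded genes, a replicate block, only the groups compared, and leaving out libraries. Intervals cover the spread between libraries, and the labels do not say more about the animals than a replicate number.

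The 10 genes and all gene lists were chosen with earlier results of these data known. Named genes were the 10, the list genes that passed the threshold or had the smallest p values, and the 5 genes most like the mean of the 10. *Igfbp3*, *Sfn*, *Dram1*, *Apaf1*, *Tnfsf10*, *Bik*, *Casp9* and *Fasl* were named after their values were seen. Summed markers of podocytes, neutrophils, adipocytes, thick ascending limb and distal and collecting duct overlapped between all groups. Groups came from the titles, genotype and treatment of the labels. One label speaks of nuclei, whereas the methods describe RNA of cortex.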

Additional observations from a re-analysis of the deposited data

Results flagged for a closer look

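*Bbc3* in WT MAT2Ai replicate 2, at 5.30 CPM, was far from the other libraries of its group by Dixon's test on CPM. The next highest library had 2.74 CPM and the lowest 1.86 CPM, so that the gap took 0.744 of the range, above the critical value of 0.71 for 5 libraries. On log2 CPM it did not pass. Of 40 sets of a gene and a group, 1 passed on CPM and 0 on log2 CPM, and chance passes about 1 in 20. The same library had the highest summed tubular injury markers of all 20, and their part in this value was not tested.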

How the results depend on the processing

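The direction of every median inhibitor difference and the count of 0 genes called between genotypes held under other scaling, DESeq2, limma-voom, no filter on low counts, leaving out mitochondrially encoded genes, fits of only the groups compared and a replicate block. Leaving out 1 library at a time, the median log2 fold change ranged from 0.28 to 0.47 in SP, from 0.53 to 0.76 in WT and from 0.47 to 0.65 over both genotypes, genes called between genotypes over both treatments ranged from 0 to 1 (*Pmaip1*, without WT MAT2Ai replicate 4), and genes without overlap ranged from 3 to 5 in SP, where 5 came without SP placebo replicate 2 (1.49% of all genes) or SP MAT2Ai replicate 4 (2.11%). Fewer libraries leave more genes without overlap. Without the libraries labelled SP placebo replicates 1 and 2, 6 of the 10 did not overlap in SP, against 2.76% of all genes. Without WT MAT2Ai replicates 2, 3 and 4, 7 did not overlap in WT, against 6.69% of all genes, and 1, *Pmaip1*, was called over both treatments. Without both sets, the counts were 6 in SP (2.45%), 7 in WT (7.08%) and 1 call. In the last 2 settings the WT difference was 0.24 and 0.25 for *Pmaip1*, -0.13 and -0.13 for *Perp* and 0.51 and 0.52 for *Trp53inp1*, against -0.01, 0.09 and 1.09 with all libraries. The cause of these shifts was not tested.

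Replicate numbers did not pair the libraries: same-numbered libraries correlated at -0.02 on average over 30 pairs, 4 of them over 0.1, and 6 of 20 libraries correlated best with their own number. With the replicate block the medians were 0.38 in SP, 0.61 in WT and 0.57 over both genotypes, and 0 genes were called between genotypes. It called 88 genes in all between genotypes under MAT2Ai, against 298 without it, and 114 over both treatments, against 215.

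Over all tested genes the count of calls depended on the tool. DESeq2 called 1203 genes between genotypes under MAT2Ai, 894 over both treatments, 27 with the inhibitor in SP, 215 in WT and 192 over both genotypes, where edgeR called 298, 215, 3, 0 and 36. Fits of only the groups compared called 2 genes between genotypes under MAT2Ai and 10 with the inhibitor in SP. Limma-voom called 108 genes between genotypes under MAT2Ai. Without SP placebo replicates 1 and 2, 4 genes were called with the inhibitor over both genotypes, and without WT MAT2Ai replicates 2, 3 and 4, 88 were. For the arrest, feedback and repair targets, the tubular injury markers and for *Eda*, *Emp2* and *Atr* the alternatives were chosen after seeing the data. Depth limits *Eda2r* most, with 15 counts in its lowest library. The likeness to the other 9 genes and the use of Dixon's test on CPM beside log2 CPM were also chosen after seeing the data.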
